A study of Homo sapiens with 6 samples.

Results

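The sites described here were 517 regions of the genome at which chromatin immunoprecipitation followed by sequencing (ChIP-seq) listed a KLF5 peak and a CEBPB peak in Calu-3 cells but no KLF5 peak in 16HBE14o- cells. They were chosen from the deposited peak lists themselves. A Calu-3 KLF5 peak was kept if it shared at least 1 bp with a Calu-3 CEBPB peak and none with a 16HBE14o- KLF5 peak. The 517 sites were part of 1510 Calu-3 KLF5 peaks, of which 1154 had no 16HBE14o- KLF5 peak over them. CEBPB overlapped 43.7% of all 1510 KLF5 peaks and 44.8% of the 1154, but these shares are what the choice of the sites was built on and nothing is read from them.

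Calu-3 is a line from a human lung adenocarcinoma that keeps features of airway gland epithelium, and 16HBE14o- is a bronchial epithelial line immortalised with a viral oncogene. The 6 samples were 2 of KLF5 in Calu-3, 2 of CEBPB in Calu-3 and 2 of KLF5 in 16HBE14o-, all from untreated cells in DMEM with serum. Different antibodies were used for the Calu-3 KLF5 samples, rabbit anti-KLF5 for the first and Santa Cruz sc-398470 for the other, and sc-398470 for both 16HBE14o- samples. Santa Cruz sc-7962 was used for CEBPB. Cell line and antibody can therefore not be fully told apart in the absence of a 16HBE14o- peak. A single list covers the 2 samples of a group, and the values below therefore have no error between samples. Sequencing depth is unknown, and a missing 16HBE14o- peak does not show a lack of binding.

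KLF5 is a zinc finger transcription factor of the Krüppel-like family, which binds GC-rich and CACCC elements and is known for keeping epithelial cells of the airway, gut and bladder proliferating and intact. CEBPB is a basic leucine zipper factor that binds as a dimer, alone or with other CEBP proteins. It is induced by inflammatory cytokines and is known in lung epithelium for acute-phase and innate immune genes. KLF5 and CEBP factors are known to act on the same genes during adipocyte differentiation in mouse cells.

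The sites are given by hg19 position. No hg19 sequence or gene annotation was used here, so no gene, promoter or motif is assigned to any of them. Signal values are the authors' own, in units whose normalization was not stated. Percentiles rank a peak within its own list, with 100 for the highest peak.

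CEBPB peaks at the sites were mostly among the strongest of the CEBPB list, and KLF5 peaks were of middling rank in the KLF5 list. These ranks are not on a common scale. The CEBPB list held 69386 peaks, of which 46.3% had a q-value of 0.05 or less, and the KLF5 list held 1510. A middling KLF5 rank therefore does not show that KLF5 was bound less strongly than CEBPB. The median CEBPB signal was 10.2 (95% interval 9.13 to 10.7), compared with 3.17 over all 69386 CEBPB peaks, and corresponded to percentile 97.3 (96.5 to 97.5). CEBPB peaks at the sites were also wider, with a median of 274 bp (269 to 282) against 151 bp over all CEBPB peaks. A wider peak meets the overlap rule more easily, and the part of width in the CEBPB percentile was not tested. The median KLF5 signal was 27.0 (26.1 to 27.6), close to the 27.2 of the whole Calu-3 KLF5 list, at percentile 48.7 (44.2 to 51.9). Intervals are for the median and come from binomial order statistics over peaks, which are not replicates.

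Strong CEBPB peaks made up most of the sites. A CEBPB percentile above 90 was found at 371 of 517 sites (71.8%, exact interval 67.7 to 75.6), a class that held 10.0% of all CEBPB peaks. The class above percentile 99, with 1.00% of all CEBPB peaks, accounted for 138 sites (26.7%, 22.9 to 30.7). The authors' q-value was 0.05 or less for the CEBPB peak of 472 sites (91.3%, 88.5 to 93.6), against 46.3% of the CEBPB list. At the low end, 55 sites (10.6%, 8.12 to 13.6) had a CEBPB peak at or under percentile 50. These values belong to a list that the choice used, and are a description.

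CEBPB signals at the sites were counted in bins of 0.5 on the log2 scale, whose width was set after the values were seen. The fullest bin held 101 sites, with signals from 11.3 to 16. Towards lower signals the following bins held 91, 50, 56 and 68 sites, the last with signals from 2.83 to 4. The counts between 4 and 8 were thus lower than those on either side, but counting error was not worked out for the bins. Over all CEBPB peaks the fullest bin was that from 2.83 to 4, with 36781 peaks, and the bin from 11.3 to 16 held 956.

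**Figure D1:**
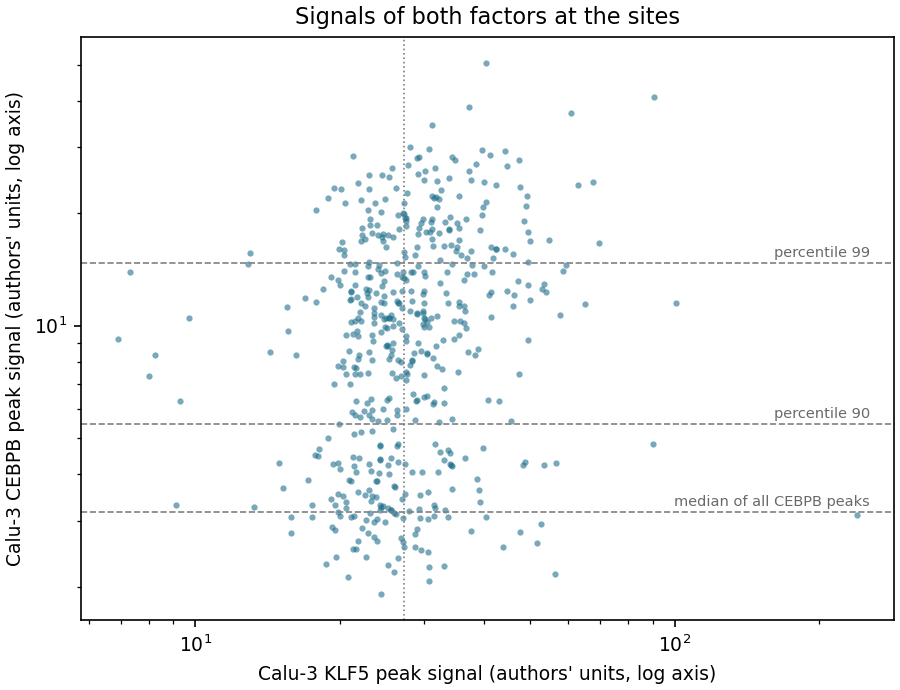
Each point is 1 of the 517 sites, with the Calu-3 KLF5 peak signal on the x axis and the signal of the overlapping Calu-3 CEBPB peak on the y axis, both on log axes in the authors' units. Dashed lines mark the median (3.17), percentile 90 (5.44) and percentile 99 (14.7) of all CEBPB peaks, the dotted line marks the median KLF5 signal of the whole list (27.2), and most points lie above the percentile 90 line.

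The KLF5 peaks themselves covered nearly the whole range of their list. Signals ran from 6.91 to 240, with the middle of the distribution between 23.0 (percentile 25 of the sites) and 33.0 (percentile 75). Calu-3-only KLF5 peaks without CEBPB had a median of 25.8 (24.6 to 26.8), with 21.6 and 31.5 at the same points. KLF5 peaks listed in both lines and overlapped by CEBPB were higher, with a median of 33.9 (31.7 to 37.2). The highest possible KLF5 score of 1000 was given to 223 of the 517 sites (43.1%, 38.8 to 47.5), to 248 of 637 without CEBPB (38.9%, 35.1 to 42.8) and to 94 of 143 in both lines with CEBPB (65.7%, 57.3 to 73.5). In the whole list the share was 46.0%. None of these differences was tested, because membership of the lists defines the classes compared.

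The 10 sites with the highest mean percentile of both factors were on chromosomes 1, 2, 3, 12, 17, 19 and 20. First came chr1:31584116-31584395, with a KLF5 signal of 90.6 (percentile 98.9) and a CEBPB signal of 41.0 (percentile 99.99). It ranked 3 among the 517 sites by KLF5 and 2 by CEBPB, and its summits were 14 bp apart. The nearest 16HBE14o- KLF5 peak was 43560 bp away.

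At chr20:23342470-23342749 the signals were 67.6 for KLF5 and 24.2 for CEBPB, with summits 1 bp apart. At chr12:25539131-25539410 they were 69.4 and 16.7. The site chr3:193721528-193721597 was only 70 bp wide, against 280 bp for 515 of the 517 sites, and had signals of 101 for KLF5 and 11.5 for CEBPB. All 3 were among the 6 sites of highest KLF5 signal.

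Chromosome 2 held the next 2 of the 10. At chr2:120124279-120124558 the signals were 62.9 for KLF5 and 23.8 for CEBPB, with summits 2 bp apart, and at chr2:47194384-47194663 they were 60.7 and 37.2, with summits 46 bp apart. The other 4 sites were chr3:156848226-156848505, chr1:3585404-3585683, chr19:4058386-4058665 and chr17:36715658-36715937. Their KLF5 signals lay between 54.7 and 65.1 and their CEBPB signals between 11.5 and 17.0. All 10 were above percentile 95 for KLF5 and above percentile 97 for CEBPB.

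High signals of one factor were not always matched by the other. The site of highest KLF5 signal, chr3:193852569-193852984, was also the highest peak of the entire Calu-3 list, at 240. It was 416 bp wide and had another Calu-3 KLF5 entry 268 bp away. Its CEBPB peak had a signal of 3.12 (percentile 42.6), and the summits lay 103 bp apart. A 16HBE14o- KLF5 peak lay 721 bp away. Among the 5 highest by KLF5, chr8:33901346-33901625, had a KLF5 signal of 90.05 and a CEBPB signal of 4.83 (percentile 87.5), with summits 7 bp apart. Of the 107 sites with a KLF5 percentile above 75, 8 had a CEBPB percentile of 50 or less, against 55 of all 517 sites (10.6%). Besides chr3:193852569-193852984, the 8 included chr3:46734111-46734390, with signals of 56.3 for KLF5 and 2.16 for CEBPB. Another was chr8:143751289-143751568, with 52.7 and 2.95. The CEBPB −log10 q-values of chr3:46734111-46734390 and chr8:143751289-143751568 were 0.0946 and 1.24, both short of a q-value of 0.05. It was 2.48 at chr3:193852569-193852984.

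Strong CEBPB peaks were less common among sites of low KLF5 signal, but were still found at most of them. Among the 115 sites with a KLF5 percentile of 25 or less, 71 (61.7%) had a CEBPB percentile above 90, compared with 71.8% of all 517 sites. The 5 sites of highest CEBPB signal were not of low KLF5 signal, and all were at KLF5 percentile 66.3 or higher. The highest of them by CEBPB, chr2:12596525-12596804, had a CEBPB signal of 50.4 (percentile 99.997) and a KLF5 signal of 40.5 (percentile 85.3). Its summits were 83 bp apart within a CEBPB peak of 521 bp. The site chr14:74409826-74410105 had 38.5 for CEBPB and 37.3 for KLF5 (percentile 80.3), and chr21:40203492-40203771 had 34.5 for CEBPB and 31.2 for KLF5 (percentile 66.3). The 2 further sites of the 5 with the highest CEBPB signal were those on chromosomes 1 and 2 named above at 31584116 and 47194384.

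The weakest sites by mean percentile combined low signals of both factors. At chr3:150846548-150846827 the KLF5 signal was 18.7 and the CEBPB signal 2.30. At chr3:183903794-183904073 they were 20.8 and 2.12, and at chr7:44836493-44836772 they were 19.7 and 2.40. The CEBPB −log10 q-values of these 3 sites were 0.384, 0.641 and 0.528, all short of a q-value of 0.05. Their KLF5 −log10 q-values were 0.941, 1.319 and 1.106, and only that of chr3:183903794-183904073 reached a q-value of 0.05.

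Across the 517 sites, CEBPB signal was higher where KLF5 signal was higher, but loosely so. Spearman's rho between the signals was 0.25 and Pearson's r on the log2 scale was 0.20. All points come from the same cell line and the same pair of lists, and peaks are not independent, so no p-value is given. From the lowest to the highest of 4 classes of KLF5 percentile, the share of sites with a CEBPB percentile above 90 was 61.7% (52.2 to 70.6, n = 115), 67.3% (59.3 to 74.7, n = 153), 76.8% (68.9 to 83.4, n = 142) and 82.2% (73.7 to 89.0, n = 107). For CEBPB above percentile 99 the shares were 13.9% (8.17 to 21.6), 18.3% (12.5 to 25.4), 33.8% (26.1 to 42.2) and 43.0% (33.5 to 52.9) over the same classes. Both shares thus increased from class to class.

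**Figure D2:**
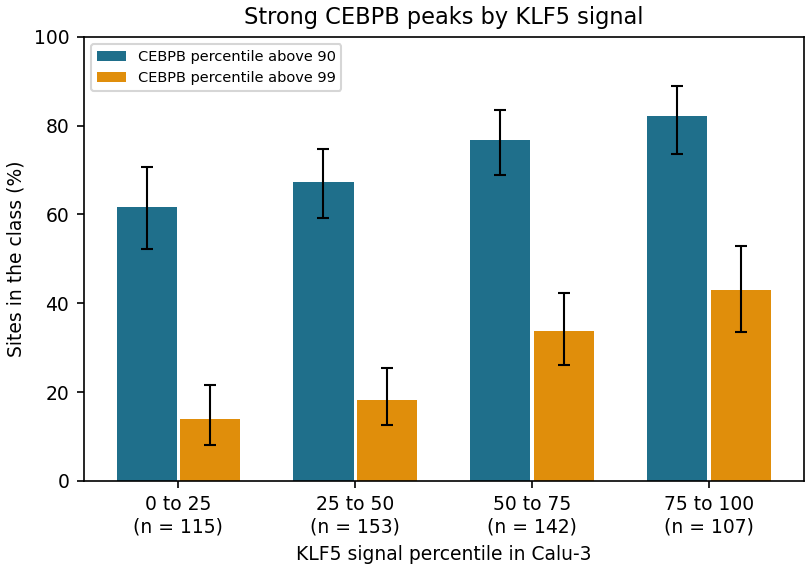
Bars give the percentage of sites whose CEBPB peak was above percentile 90 (blue) or above percentile 99 (orange), in 4 classes of KLF5 signal percentile on the x axis, and error bars are exact 95% binomial intervals for counting error only. The blue bars go from 61.7% to 82.2% and the orange bars from 13.9% to 43.0%.

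KLF5 signal was highest at the sites in the top class of CEBPB. The 138 sites with CEBPB above percentile 99 had a median KLF5 percentile of 65.8 (58.3 to 69.4). It was 46.0 (41.1 to 51.7) at the 233 sites between 90 and 99, 35.9 (32.5 to 44.2) at the 91 sites between 50 and 90, and 43.8 (29.1 to 56.6) at the 55 sites at or under 50. The intervals of the 3 lower classes overlapped. At KLF5 peaks listed in both lines with CEBPB, rho was -0.01 over 143 peaks, and at KLF5 peaks listed only in 16HBE14o- with Calu-3 CEBPB, where the factors were measured in different lines, it was 0.06 over 584 peaks. With CEBPB peaks of a q-value of 0.05 or less, rho was 0.26 at the sites described here (n = 472), 0.08 at those of both lines (n = 115) and 0.01 at those of 16HBE14o- only (n = 378). The differences between these values were not tested.

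The distance between the summits of both factors is bounded by the choice of the sites, because the peaks had to overlap, and is given as a description. The median distance between the KLF5 and CEBPB summits was 28 bp (25 to 32), with 13 bp at percentile 25 and 56 bp at percentile 75. Summits lay within 30 bp at 274 of 517 sites (53.0%, 48.6 to 57.4) and within 100 bp at 450 (87.0%, 83.8 to 89.8). The CEBPB summit was at the higher coordinate in 243 sites and at the lower in 269, with a median signed distance of -2 bp (-7 to 1). No strand, motif or gene was used to orient the sites, so nothing is read from the side of the summit. For nearly all sites the KLF5 peak had a fixed width of 280 bp, with its summit at the centre.

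Distance depended on the strength of CEBPB. The median was 17.5 bp (15 to 23) for CEBPB above percentile 99, 25 bp (20 to 28) between 90 and 99, 52 bp (37 to 67) between 50 and 90 and 93 bp (62 to 134) at or under 50. CEBPB peaks also differed in width over these classes, with medians of 317.5, 277, 187 and 167 bp from the strongest to the weakest. A weak and narrow CEBPB peak has a less certain summit, and the part of width and summit precision in the distances was not tested.

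**Figure D3:**
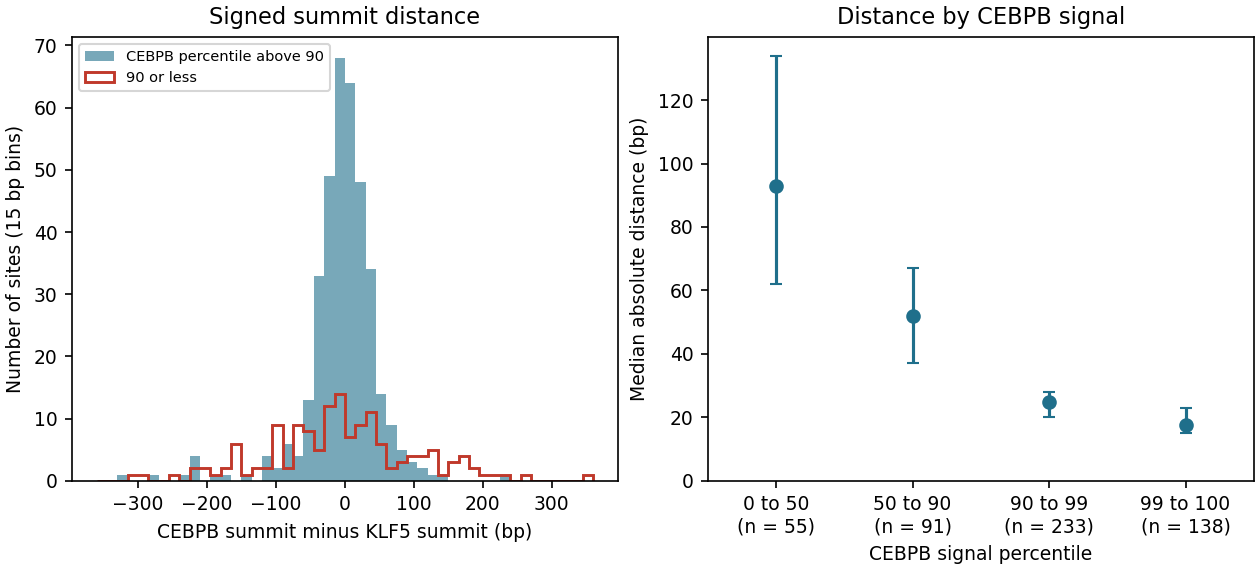
On the left, the x axis gives the CEBPB summit minus the KLF5 summit in bp and the y axis the number of sites per 15 bp, for sites with a CEBPB percentile above 90 (filled, n = 371) and of 90 or less (outline, n = 146). On the right, points are median absolute distances in 4 classes of CEBPB percentile with 95% order-statistic intervals, and they go from 93 bp in the lowest class to 17.5 bp in the highest.

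CEBPB peaks at KLF5 sites of both lines, and at those of 16HBE14o- only, were set beside these values. The median CEBPB percentile was 97.3 (96.5 to 97.5) at the 517 sites, 85.2 (81.0 to 90.8) at the 143 KLF5 peaks of both lines and 61.9 (57.8 to 70.2) at the 584 KLF5 peaks of 16HBE14o- only. With summits required to lie within 100 bp, it was 97.6 (n = 450), 88.1 (n = 111) and 67.6 (n = 343) in the same order. Median summit distances were 28 bp (25 to 32), 41 bp (32 to 51) and 82 bp (72 to 92). Among CEBPB peaks above percentile 90 they were 22 bp (n = 371), 25 bp (n = 64) and 55 bp (n = 124). 16HBE14o- peaks were wider, at 344 bp, which admits larger distances. As these classes are defined by the lists, the values are descriptive.

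The CEBPB surroundings of the sites had similar values in every class of Calu-3 KLF5 peaks. Leaving out the overlapping CEBPB peak, a mean of 0.948 further CEBPB peaks had their summit within 10 kb of the KLF5 summit, and 222 of 517 sites had none (42.9%, 38.6 to 47.3). For Calu-3-only KLF5 peaks without CEBPB the mean was 0.953, and 257 of 637 had none (40.3%, 36.5 to 44.3). KLF5 peaks of both lines had means of 0.930 with CEBPB and 0.948 without. The largest number near any of the 517 sites was 7. Calu-3-only KLF5 peaks without CEBPB had their nearest CEBPB peak at a median of 7159 bp.

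Most of the sites had no other of the 517 within 10 kb, though 34 had another Calu-3 KLF5 entry within 1 kb. Shares with a neighbour within 10 kb were not computed for the other Calu-3 KLF5 peaks. The median distance from a site to the next was 752910 bp, and 45 of 517 (8.70%, 6.42 to 11.5) had another within 10 kb. These formed 21 groups of 2 and 1 group of 3, with 7 of the 22 groups on chromosome 3. In 8 of the groups of 2, however, the sites were overlapping entries of the KLF5 list. Without the second entry of these, 29 sites were left in 14 groups, 3 of them on chromosome 3. The group of 3 lay on chromosome 9 between 130324148 and 130332169. Its KLF5 signals were 23.3, 17.9 and 28.6 in order of position, and its CEBPB signals were 3.40, 11.6 and 8.45, so the middle site was the lowest for KLF5 and the highest for CEBPB. A 16HBE14o- KLF5 peak lay 333 bp from the last of them.

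The sites were spread over 23 chromosomes. Chromosome 3 held the most, 81 of the 517, followed by chromosome 2 with 43 and chromosome 1 with 37. Chromosome 3 also held 225 of the 1154 Calu-3-only KLF5 peaks, of which the 81 sites were 36.0% (29.7 to 42.6). On chromosome 2 the sites were 53.8% (42.2 to 65.0) of 80 such peaks, and on chromosome 1 they were 44.0% (33.2 to 55.3) of 84. Over all chromosomes the share was 44.8%. CEBPB peaks at the sites of chromosome 3 had a median percentile of 92.5 (83.2 to 95.9), against 97.5 (97.1 to 97.9) at the 436 sites elsewhere. Within chromosome 3 it was 89.3 (81.3 to 95.7) at the 47 sites beyond 150 Mb and 95.8 (83.1 to 98.3) at the 34 others, with overlapping intervals. The median KLF5 percentile on the whole of chromosome 3 was 42.5 (30.9 to 57.2), against 49.6 (45.8 to 53.1) elsewhere.

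The bounds of the choice were examined at both edges. The median gap from a site to the nearest 16HBE14o- KLF5 peak was 221432 bp, and 329 sites (63.6%, 59.3 to 67.8) were more than 100 kb away. These gaps also depend on the length of the 16HBE14o- list, which held 3262 peaks. They were not computed for the other Calu-3 KLF5 peaks, so nothing particular to the sites is read from them. A 16HBE14o- KLF5 peak lay within 1 kb of only 16 sites. The nearest were chr20:30181215-30181494 at 72 bp, chr2:86668057-86668336 at 96 bp and chr6:86353778-86354057 at 294 bp, with KLF5 percentiles of 64.8, 45.2 and 19.4. Just outside the choice, chr19:29589855-29590134, chr15:92486266-92486545 and chr14:90910688-90910967 shared 32, 42 and 47 bp with a 16HBE14o- peak. Their KLF5 percentiles were 35.8, 82.1 and 72.4 and their CEBPB percentiles 95.1, 98.99 and 99.7.

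At the edge towards CEBPB, the median shared length was 245 bp, and 450 sites were covered by CEBPB over at least 50% of the KLF5 peak. The smallest overlaps were 5 bp at chr7:44836493-44836772, 9 bp at chr3:169939859-169940138 and 10 bp at chr3:150846548-150846827, all with a CEBPB percentile under 28. On the other side, 12 of the 637 Calu-3-only KLF5 peaks without CEBPB had a CEBPB peak within 100 bp. The closest abutted one at chr10:47136835-47137114 without sharing a base, where KLF5 was at percentile 20.1 and CEBPB at 3.94. The next, at chr8:126423140-126423419, was 3 bp from a CEBPB peak of percentile 95.4, with its own KLF5 signal at percentile 2.19.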

How the data were processed

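Peak lists of KLF5 in Calu-3 (1510 peaks), CEBPB in Calu-3 (69386) and KLF5 in 16HBE14o- (3262) were used as deposited. Per the submitters' processing notes and the file headers, coordinates are on hg19. They are named as irreproducible discovery rate peaks per the file headers and were made from both samples of each group per the series' design text. The aligner, peak caller, filters and control library are not given in the sources used here. The deposited signal, score and −log10 q-values are the authors' own. Depth is unknown, since no list holds read counts.

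Overlaps (1 bp or more), percentiles, summit distances and gaps were computed with numpy 2.4.6, pandas 2.3.3 and scipy 1.17.1 under Python 3.11.15. Where 2 CEBPB peaks overlapped a site, that of higher signal was used. The overlap step was tested on simulated lists with planted overlaps. Intervals are 95% and cover counting error only. No test was run, because membership of the lists chose the sites. Motif and promoter comparisons had been planned but need the hg19 sequence and annotation, which were not used here. Named sites follow a rule: the 10 highest by mean percentile, the 5 highest by each signal, the 3 lowest, groups of 3 or more within 10 kb, and 3 at the edges towards 16HBE14o-. Sites named for the edge towards CEBPB, for discordant signals or as overlapping entries were chosen after their values were seen. The sites and lists were chosen with earlier results of these data known.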

Additional observations from a re-analysis of the deposited data

How the results depend on the processing

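Requiring at least 50% of the KLF5 peak to be covered left 450 sites, with a median CEBPB percentile of 97.8 and a median summit distance of 24.5 bp. Requiring summits within 100 bp also left 450, with 97.6 and 23.5 bp, where the lower distance follows from the cut itself. With KLF5 peaks of the highest score, 223 sites remained, with a median KLF5 percentile of 74.2 and a median CEBPB percentile of 97.9. That score was given to 4.35% of the sites in the lowest class of KLF5 percentile and to 98.1% in the highest. The higher KLF5 percentile therefore also follows from the cut. Within 50 kb, 78 sites had another, against 45 within 10 kb, and 29 did within 10 kb without the second entry of overlapping pairs, an alternative chosen after seeing the data. The other 18 values stayed within 1.5 times of a count, within the interval of a median or, for rho, at the same value. Among them were the counts of 472 sites with CEBPB q-values of 0.05 or less, 501 with no 16HBE14o- peak within 1 kb and 509 after merging. The alternative for rho took the CEBPB peak with the nearest summit. It could hardly change rho, because 515 of the 517 sites overlapped only 1 CEBPB peak. Leaving out a replicate was not possible, since each list combines both samples. No paired analysis was possible because no result comes from a test and the lists carry no replicate. The alternatives for motifs and transcription starts were not run. Unknown depth limits what an absent peak can show.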

Other observations

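Some of the 517 sites were overlapping entries of the same KLF5 list. In 8 cases both entries of a pair were among the sites, with summits 200 to 231 bp apart. In all 8 the entry at the higher coordinate had the lower KLF5 signal, at percentile 0.132 to 4.11, whereas the entry at the lower coordinate was at percentile 5.56 to 79.9. At chr12:65212136-65212415 the KLF5 signal was 34.7, and its partner, chr12:65212349-65212628, had the lowest signal of all 517 sites at 6.91. Both overlapped the same CEBPB peak, whose summit was 1 bp from the first KLF5 summit and 214 bp from the second. Of the 12 sites with a KLF5 signal under 15, 8 overlapped another Calu-3 KLF5 entry. The whole Calu-3 list held 36 such pairs, and in 35 the entry at the higher coordinate had the lower signal. The peak caller is not given in the sources used here, and whether the second entries are sites of their own or come from the peak calling was not tested.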
